A study of Mus musculus with 12 samples.

Results

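The promoters of the mouse Zfp genes were examined for peaks of histone H3 lysine 36 acetylation (H3K36ac). Members were the protein-coding autosomal genes of the RefSeq annotation of mm10 whose symbol begins with Zfp followed by a digit, and the region of each was the stretch within 3000 bp on either side of its gene start. This gave 388 Zfp starts among 20260 autosomal protein-coding starts. The series held H3K36ac ChIP-seq of spermatogonia-enriched testis cells at Pnd 5 (postnatal day 5), with 50000 cells per sample. There were 3 samples from WT mice and 3 from Sirt7-/- mice, labelled S7KO, numbered as replicates 2, 3 and 4 in each genotype. All mice were of the 129S1/Sv background, each sample came from a different mouse, and no other allele or agent was named. Each sample had an input library, used here only through the peak calling of the authors.

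Most Zfp genes belong to the C2H2 zinc finger genes, the largest family of transcription regulators in mammals. Their tandem fingers read DNA sequence, and many carry a KRAB domain, which recruits TRIM28 (KAP1) and the H3K9 methyltransferase SETDB1 to silence transposable elements and imprinted alleles. The KRAB members arose by tandem duplication and lie in dense gene clusters, whereas many of the others are lone, older genes. H3K36ac is a mark of active promoters, and SIRT7 is an NAD+-dependent deacetylase that removes it.

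The peak lists differed in size. The Sirt7-/- lists held 2840, 2045 and 2591 peaks in replicates 2, 3 and 4, and the WT lists held 906, 64 and 294. A call in all 3 WT samples could be made at no more places than the 64 peaks of WT replicate 3 reach. The lists hold no read coverage, so a start without a peak may still carry the mark below the calling threshold. No sample had a peak at the start of Sirt7, so these lists cannot check the deletion. Of the cell type markers, 5 of 15 spermatogonial and germ cell genes and 3 of 7 Sertoli genes had a peak in at least 1 Sirt7-/- sample, while 0 of 10 Leydig, peritubular and stromal genes and 0 of 4 blood and endothelial genes did, against 20.3% of all autosomal protein-coding starts. Not 1 of these marker genes had a peak in WT, against 5.42% of all starts. With so few marker peaks the composition of the samples could not be checked from the lists, and its part in the results was not tested.

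The promoter sequences below show the range found among Zfp genes. Each has 250 bases before and 50 after a RefSeq start (GRCm38.p6), written 5′ to 3′ along the gene, with CpG dinucleotides in capitals. Zfp335 was the Zfp gene with a peak in all 6 samples, Zfp768 was the clustered gene with a peak in all 3 Sirt7-/- samples, and Zfp712 and Zfp708 open the largest Zfp cluster, which had no peak. They lie at chr2:164911701-164912000, chr7:127345265-127345564, chr13:67061121-67061420 and chr13:67097927-67098226, all on the minus strand.
Zfp335: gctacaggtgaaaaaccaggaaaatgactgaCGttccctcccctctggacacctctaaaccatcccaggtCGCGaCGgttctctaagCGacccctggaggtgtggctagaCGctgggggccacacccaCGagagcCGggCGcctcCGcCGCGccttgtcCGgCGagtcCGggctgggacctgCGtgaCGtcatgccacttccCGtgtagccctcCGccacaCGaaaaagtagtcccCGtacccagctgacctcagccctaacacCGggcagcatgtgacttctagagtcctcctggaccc
Zfp768: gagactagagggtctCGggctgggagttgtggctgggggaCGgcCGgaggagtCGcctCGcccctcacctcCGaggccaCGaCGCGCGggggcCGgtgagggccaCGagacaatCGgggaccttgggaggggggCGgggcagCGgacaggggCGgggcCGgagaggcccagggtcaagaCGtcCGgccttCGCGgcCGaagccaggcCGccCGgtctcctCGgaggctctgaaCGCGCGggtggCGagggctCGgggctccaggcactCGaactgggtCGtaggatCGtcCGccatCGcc
Zfp712: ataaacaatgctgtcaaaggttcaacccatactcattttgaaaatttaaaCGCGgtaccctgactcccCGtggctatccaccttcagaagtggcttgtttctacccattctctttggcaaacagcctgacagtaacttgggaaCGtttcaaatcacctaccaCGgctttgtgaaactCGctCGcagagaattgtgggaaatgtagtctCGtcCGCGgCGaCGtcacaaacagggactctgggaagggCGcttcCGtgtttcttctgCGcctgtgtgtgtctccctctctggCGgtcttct
Zfp708: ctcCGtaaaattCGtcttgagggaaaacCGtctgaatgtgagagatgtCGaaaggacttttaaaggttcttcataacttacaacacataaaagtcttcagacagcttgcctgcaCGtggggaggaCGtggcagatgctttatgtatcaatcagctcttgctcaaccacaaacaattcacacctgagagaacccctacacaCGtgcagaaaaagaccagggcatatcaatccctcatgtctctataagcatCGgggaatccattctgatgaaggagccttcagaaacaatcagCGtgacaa
The Zfp335 sequence belongs to a RefSeq start 835 bp inside the annotated gene and had a peak over it in 5 of the 6 samples. The Zfp768 sequence had a peak over it in 2 samples. The number of CpGs was 22 at Zfp335, 35 at Zfp768, 16 at Zfp712 and 9 at Zfp708. The observed over expected CpG ratio, which corrects for base composition, was 0.757, 0.881, 0.861 and 0.604 in the same order, so the peakless Zfp712 promoter was nearly as rich in CpG by this ratio as that of Zfp768.

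H3K36ac peaks were called at more Zfp starts in Sirt7-/- than in WT samples, as they were at gene starts in general. In Sirt7-/- replicates 2, 3 and 4, 62, 48 and 61 of the 388 Zfp starts had a peak, or 15.98%, 12.37% and 15.72%. In WT replicates 2, 3 and 4, the counts were 18, 1 and 4, or 4.64%, 0.258% and 1.03%. The groups did not overlap, with means of 14.7 ± 2.01% and 1.98 ± 2.34% (SD, n = 3 each). Over all autosomal protein-coding starts the means were 12.2 ± 1.81% and 2.14 ± 2.24%. The ratio of the Sirt7-/- to the WT mean was 7.43 for Zfp starts and 5.71 for all starts. Without WT replicate 2 these ratios were 22.8 and 13.8. Each list was also reduced to its 64 best peaks by q, the number in the shortest list. The mean Zfp share of the genotypes then differed by 0 percentage points. That setting left 0.515% of Zfp starts with a peak in at least 1 Sirt7-/- sample and 0.515% in at least 1 WT sample. So few starts could not show a difference between genotypes. The difference in the full lists could not be told apart from that in the number of peaks called.

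Within a sample, the Zfp share lay near that of all starts. The Zfp share divided by the share of all starts was 1.15, 1.20 and 1.27 in Sirt7-/- replicates 2, 3 and 4, all above 1, and 1.00, 0.768 and 0.720 in the WT replicates. In each of the 6 samples the share of all starts fell inside the exact 95% confidence interval of the Zfp share, which covers counting error only. The WT ratios rested on 18, 1 and 4 starts. The mean ratio crossed 1 under some settings. The Sirt7-/- mean went from 1.21 to 0.801 with the 64 best peaks of each list, a setting that left few Zfp starts with a peak. The WT mean went from 0.829 to 1.02 when any RefSeq promoter of a gene was counted, a setting chosen after the values were seen.

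**Figure D1:**
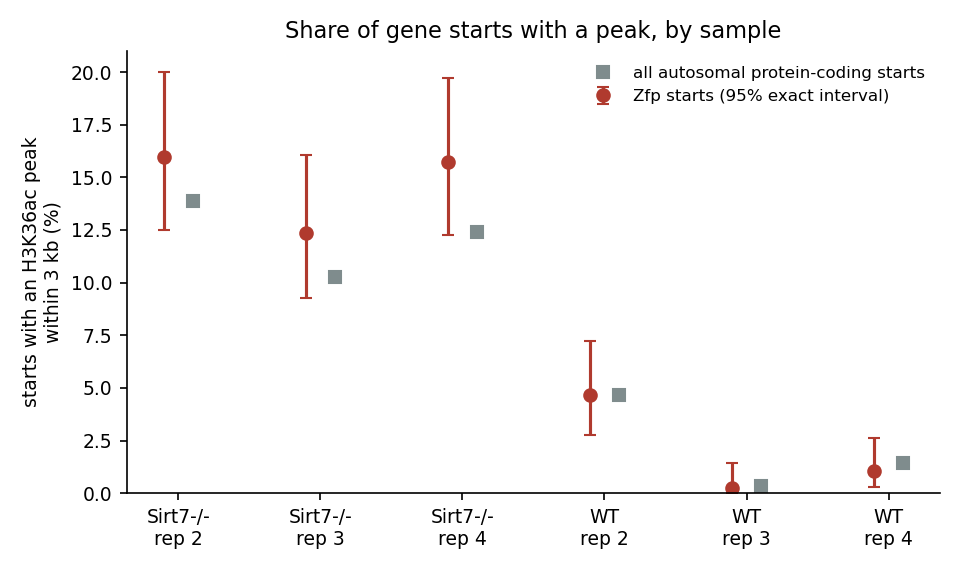
Share of gene starts with an H3K36ac peak within 3 kb (y axis, percent) in each sample (x axis), for the 388 Zfp starts (circles, bars are exact 95% confidence intervals) and all 20260 autosomal protein-coding starts (squares). The Sirt7-/- Zfp shares sit between 12.37% and 15.98% and the WT shares between 0.258% and 4.64%, and each square lies within the bar beside it.

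Taken over samples, 101 of 388 Zfp starts (26.0%, exact 95% confidence interval 21.7 to 30.7%) had a peak in at least 1 Sirt7-/- sample, against 20.3% of all starts. A peak in all 3 Sirt7-/- samples was found at 24 Zfp starts (6.19%), against 5.39% of all starts. Calls in at least 1 WT sample were made at 21 Zfp starts (5.41%), against 5.42%. At 12 Zfp starts (3.09%) a peak was present in all 3 Sirt7-/- and no WT samples, against 2.59%. A peak in WT alone was found at 0 of 388 Zfp starts, which allows a share of up to 0.773%, against 0.503%. Of these rules, the share in at least 1 Sirt7-/- sample was the one whose interval did not hold the value of all starts. These intervals treat starts as separate, though some share peaks, and the members were chosen with results of these data known. They describe counting error and are no test.

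The surplus lay in starts called once. A peak in exactly 1 Sirt7-/- and no WT sample was found at 52 Zfp starts (13.4%), against 8.54% of all starts, whereas 16 Zfp starts (4.12%) had a peak in 2 Sirt7-/- and no WT samples, against 4.23%. Counting Sirt7-/- samples alone, 55 Zfp starts were called in 1 sample, 22 in 2 and 24 in 3. The 55 comprised 20 starts of replicate 2, 11 of replicate 3 and 24 of replicate 4. In WT, 20 starts were called in 1 sample, 0 in 2 and 1 in 3, together 5.41%, against 5.42% of all starts. Of the 21 Zfp starts with a WT peak, all also had a Sirt7-/- peak, and 17 were called in WT replicate 2 alone among the WT samples.

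**Figure D2:**
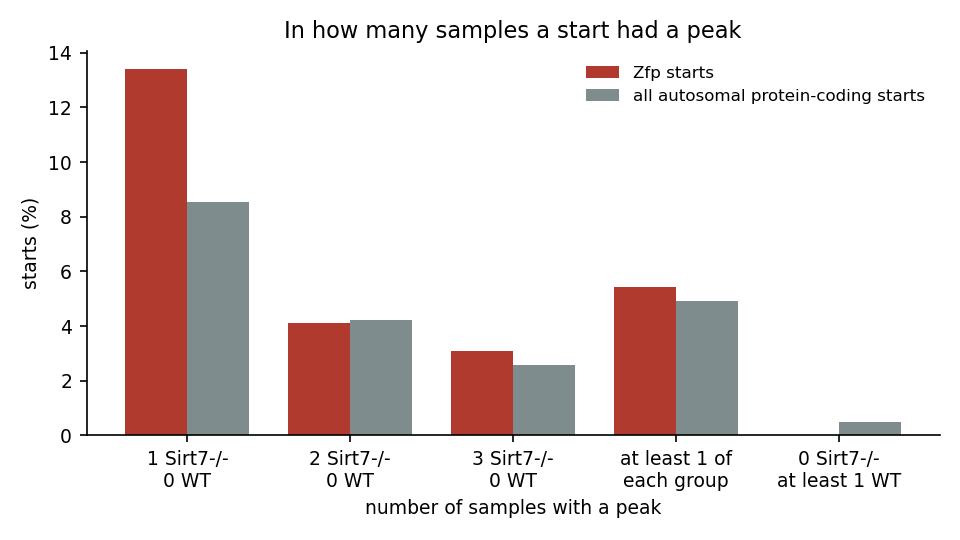
Percent of starts (y axis) by the number of samples with a peak (x axis), for the 388 Zfp starts (red) and all autosomal protein-coding starts (grey). The bars part at 1 Sirt7-/- and no WT sample, 13.4% against 8.54%, and the last class holds no Zfp start.

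For each start, presence of a peak was compared between the genotypes by Fisher's exact test, two-sided, on 3 samples against 3. The smallest p this allows is 0.1, reached by 524 of the 20260 starts, among them the 12 Zfp starts, and no start fell below 0.05 before adjustment. After Benjamini-Hochberg adjustment over all starts the smallest p was 1. The rule behind the count of 12 is easier to meet with a sample left out, so the count could then only stay or rise. It was 20 without Sirt7-/- replicate 3 and 21 without WT replicate 2. With fewer peaks kept, the count was 6 when only peaks at least 500 bp wide were used and 0 with the 64 best peaks of each list. Without WT replicate 2 the share of Zfp starts with a WT peak was 1.03%.

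Zfp335, a C2H2 protein of H3K4 methyltransferase complexes, was the Zfp gene with a peak in all 6 samples. Its gene lies at chr2:164891882-164912585 on the minus strand, and the nearest other protein-coding start, that of Mmp9, is 27741 bp away. The peak was 394, 946 and 836 bp wide in Sirt7-/- replicates 2, 3 and 4 and 615, 390 and 318 bp wide in the WT replicates. The groups overlapped, with means of 725 ± 292 bp and 441 ± 155 bp (SD, n = 3 each; exact permutation test, two-sided, p = 0.2). The authors' fold over input, the peak's enrichment within its own sample, was 5.44, 5.28 and 5.95 in Sirt7-/- and 4.11, 6.50 and 5.93 in WT samples. By the authors' q, the peak ranked 557 of 906, first of 64 and 31 of 294 in the WT lists of replicates 2, 3 and 4, and 75 of 2840, 298 of 2045 and 82 of 2591 in the Sirt7-/- lists. Its midpoint lay 789 to 1237 bp inside the gene, around the inner RefSeq start whose sequence is printed.

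The 12 Zfp starts with a peak in all 3 Sirt7-/- and no WT samples were, in order of the authors' q within the lists, Zfp36l1, Zfp605, Zfp706, Zfp740, Zfp281, Zfp507, Zfp830, Zfp518a, Zfp451, Zfp768, Zfp263 and Zfp407. In 9 of them the peak midpoint lay nearer to the Zfp start than to any other protein-coding start in all 3 samples. The exceptions were Zfp605, Zfp830 and Zfp36l1. The peaks at Zfp605, a KRAB zinc finger gene, were centred 1976.5, 2062.5 and 2097.5 bp upstream of it, nearer to the start of Gtpbp6. The start of Zfp830 lies 43 bp from that of Cct6b, a chaperonin subunit gene, and its peaks were nearer to Cct6b. At Zfp36l1 the peak found in each sample, 661, 573 and 676 bp wide, was centred 2320 to 2444 bp upstream, nearer to a predicted gene, Gm52006.

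Among the other 9, Zfp706, which encodes a small protein with a single C2H2 match, had the peaks most closely centred on the start. They were 941, 935 and 1037 bp wide and covered the start in all 3 samples, with fold over input of 4.32, 4.88 and 4.45. Zfp281, a regulator of pluripotency, had peaks of 392, 717 and 250 bp centred 170 to 464 bp downstream, with fold over input of 4.59, 4.40 and 3.93. Zfp451, a SUMO ligase, had peaks of 509, 843 and 809 bp centred 1248 to 1587 bp downstream. Zfp768, in a cluster of 5 Zfp genes, had peaks of 660, 376 and 549 bp upstream of its start, with fold over input of 3.64, 4.38 and 4.48. Some calls of the 12 stood at the foot of their list, as at Zfp830, whose peak in Sirt7-/- replicate 4 ranked 2591 of 2591 by q.

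Another 11 Zfp starts (2.84%) had a peak in all 3 Sirt7-/- samples and in 1 WT sample, against 2.13% of all starts. The WT sample was replicate 2 at Zfp292, Zfp644, Zfp664, Zfp143, Zfp553, Zfp668, Zfp646, Zfp827 and Zfp91, and replicate 4 at Zfp384 and Zfp532. Zfp143, a transcription factor of housekeeping promoters, had peaks of 893, 1056 and 1344 bp over its start in Sirt7-/- samples and of 272 bp upstream in WT replicate 2. Zfp668 and Zfp646 start 78 bp apart in opposite directions and shared the same peaks, 1111, 877 and 668 bp wide in Sirt7-/- and 720 bp wide in WT replicate 2. The Zfp668 start was the nearer in all 4 samples. Zfp580 with Zfp784 and Zfp27 with Zfp383 also shared peaks, so these 6 starts do not give 6 separate measurements.

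The widest peaks in Sirt7-/- samples were at Zfp827, Zfp462 and Zfp91. Zfp827 had widths of 1018, 2185 and 1212 bp in Sirt7-/- replicates 2, 3 and 4 and 862 bp in WT replicate 2, all centred 1812 to 1894 bp downstream. Zfp462, a chromatin regulator of stem cells, had widths of 997 bp in replicate 2 and 2147 bp in replicate 4. Zfp91, which encodes an E3 ubiquitin ligase, had widths of 1556, 1995 and 1461 bp in Sirt7-/- samples and 976 bp in WT replicate 2, and its start lies 236 bp from that of Lpxn, to which the peak midpoints were nearer. At Zfp827 and Zfp91 the single WT peak was narrower than each of the Sirt7-/- peaks.

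Zfp genes of known roles, listed whatever their values, fell into groups. The CCCH genes Zfp36, Zfp36l1 and Zfp36l2, whose proteins promote decay of AU-rich mRNAs and which have 0 C2H2 matches, had a peak in 2, 3 and 2 Sirt7-/- samples. Zfp207, a kinetochore and spindle factor, and Zfp148 each had a peak in 2. Of the silencing factors, Zfp809, which represses endogenous retroviruses, had a peak in Sirt7-/- replicate 2, Zfp445, which guards imprints, had a peak in Sirt7-/- replicate 4, and its partner in imprinting Zfp57 had none. The pluripotency marker Zfp42 (Rex1), the meiotic factor Zfp541, Zfp106 and Zfp521 had no peak in any sample. None of these genes apart from Zfp335 and Zfp91 had a peak in WT.

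Zfp starts without Zfp neighbours were called more often than clustered ones. A start was named lone when no other Zfp start lay within 100 kb, and clustered when 3 or more were joined by gaps of at most 100 kb. At lone starts, 64 of 175 (36.6%, exact 95% confidence interval 29.4 to 44.2%) had a peak in at least 1 Sirt7-/- sample. At clustered starts, 27 of 169 (15.98%, 10.8 to 22.4%) did, and at starts in pairs 10 of 44 (22.7%, 11.5 to 37.8%). Against the 20.3% of all starts, the lone interval lay above and the pair and cluster intervals contained it.

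The lone share exceeded the clustered share in all 6 samples. In Sirt7-/- replicates 2, 3 and 4, 24.6%, 19.4% and 22.9% of lone starts had a peak, against 8.28%, 4.73% and 8.88% of clustered starts. In the WT replicates the lone shares were 6.86%, 0.571% and 2.29%, and the clustered shares were 1.78%, 0% and 0%. The mean difference, clustered minus lone, was -15.0 percentage points over the Sirt7-/- samples. It was -0.184 with the 64 best peaks of each list, which left few starts with a peak in either class. A peak in all 3 Sirt7-/- samples was found at 20 lone starts, 3 in pairs and 1 in a cluster, Zfp768. When a peak was assigned to the nearest protein-coding start alone, 32.6% of lone and 14.2% of clustered starts retained 1 in at least 1 Sirt7-/- sample.

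**Figure D3:**
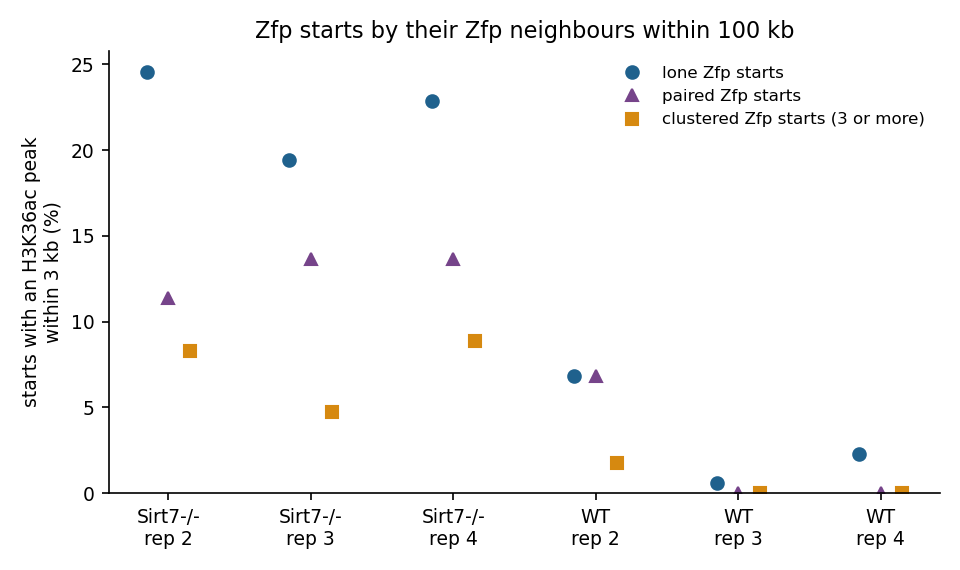
Percent of Zfp starts with an H3K36ac peak (y axis) in each sample (x axis), for the 175 lone (circles), 44 paired (triangles) and 169 clustered (squares) starts. The circles of the Sirt7-/- samples lie between 19.4% and 24.6% and the squares between 4.73% and 8.88%, and in WT 2 samples had no clustered start with a peak.

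The 169 clustered starts formed 30 clusters, and 17 clusters with 91 starts had no peak in any Sirt7-/- sample. The largest cluster, chr13:67061170-67813816 with 23 starts from Zfp712 to Zfp273, had none in any of the 6 samples, which allows a share of up to 13.0%. On chromosome 13 as a whole, 0 of 37 Zfp starts had a peak in Sirt7-/- samples, against 18.4% of all protein-coding starts of that chromosome. On chromosome 17, 3 of 46 Zfp starts (6.52%) did, against 19.9%. On chromosome 7, which holds 93 Zfp starts, 28 (30.1%) did, against 15.1%. Zfp starts on these chromosomes thus lay on opposite sides of the share of their own chromosome.

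Clusters with peaks differed in how many of their members were called. In the cluster at chr7:29768552-30169775, 5 of 15 starts had a peak in at least 1 Sirt7-/- sample. They were Zfp27, Zfp383, Zfp568, Zfp382 and Zfp146, with 4 of the 5 called in replicate 4. The peaks at Zfp382, Zfp146 and Zfp27 were narrow, at 210, 217 and 217 bp. In the cluster at chr7:4915181-5038519, 5 of 6 starts had a peak, at Zfp628, Zfp524, Zfp865, Zfp784 and Zfp580, with 4 starts called in replicate 2, 3 in replicate 3 and 0 in replicate 4. The cluster at chr17:21383707-21730955 had a peak at 1 of 9 starts, Zfp948, where widths were 320 bp in replicate 2 and 251 bp in replicate 4. The cluster at chr7:27674661-28014210 had 1 called start of 8, Zfp607b, which starts 31 bp from Map3k10, the start nearer to the peak. In each of these clusters the Sirt7-/- calls came from 1 or 2 of the 3 samples, and which samples they were differed between clusters.

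**Figure D4:**
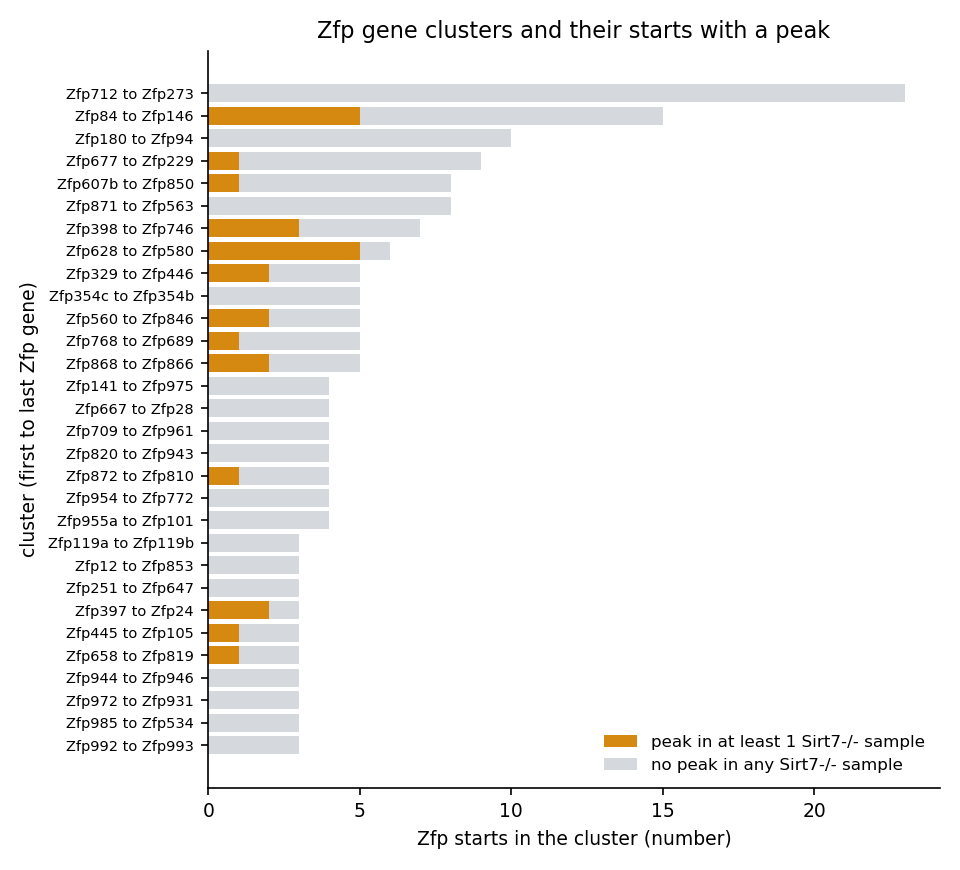
Number of Zfp starts (x axis) in each of the 30 clusters (y axis, named by first and last gene), split into starts with a peak in at least 1 Sirt7-/- sample (orange) and starts without (grey). The cluster of 23 starts has no orange part, and that from Zfp628 to Zfp580 has 5 of 6 starts with a peak.

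Zfp genes with a KRAB domain had fewer peaks than those without. A KRAB box was sought by a sequence pattern in the protein of the canonical GENCODE transcript, which was obtained for 367 of 388 genes. Of 161 genes with the pattern, 21 (13.0%, exact 95% confidence interval 8.26 to 19.2%) had a peak in at least 1 Sirt7-/- sample, against 76 of 206 without it (36.9%, 30.3 to 43.9%). The share of all starts, 20.3%, lay above the first interval and below the second. The pattern misses some KRAB genes, Zfp57 and Zfp445 among them. With a wider pattern, chosen after the values were seen, the shares were 13.3% of 173 and 38.1% of 194. In Sirt7-/- replicates 2, 3 and 4, 5.59%, 3.11% and 9.94% of KRAB starts had a peak, against 23.8%, 20.9% and 21.8% of the others. In WT the KRAB starts had 3, 0 and 0 peaks.

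KRAB genes and clusters coincide in large part, since 112 of the 161 KRAB genes were clustered. The difference was present in both settings. Among lone starts, 20.6% of 34 KRAB genes and 41.4% of 133 others had a peak in at least 1 Sirt7-/- sample. Among clustered starts, 11.6% of 112 KRAB genes and 26.5% of 49 others did. The exact intervals of the lone classes overlapped (8.70 to 37.9% and 32.9 to 50.2%), as did those of the clustered classes (6.33 to 19.0% and 14.9 to 41.1%). Over genes with a promoter sequence, the median CpG ratio was 0.564 for KRAB genes and 0.683 for the others. It was 0.533 and 0.735 among lone starts, so these classes were not matched in CpG. Among clustered starts it was 0.575 and 0.572. The single KRAB gene called in all 3 Sirt7-/- samples was Zfp605, whose peak was nearer to Gtpbp6.

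The number of C2H2 matches, a count of potential fingers, ran in the same direction. Of 78 genes with 4 to 8 matches, 31 (39.7%) had a peak in at least 1 Sirt7-/- sample. Of 149 with 9 to 13 matches, 32 (21.5%) did, and of 91 with 14 or more, 16 (17.6%). Genes with 1 to 3 matches had a peak in 14 of 38 (36.8%) and those with 0 matches in 4 of 11. Against the 20.3% of all starts, the classes with 9 or more matches lay near that share and the class with 4 to 8 above it. The median CpG ratio also differed between these classes, at 0.808 with 1 to 3 matches and 0.485 with 14 or more. The part of each feature, neighbours, KRAB, fingers and CpG content, was not tested.

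**Figure D5:**
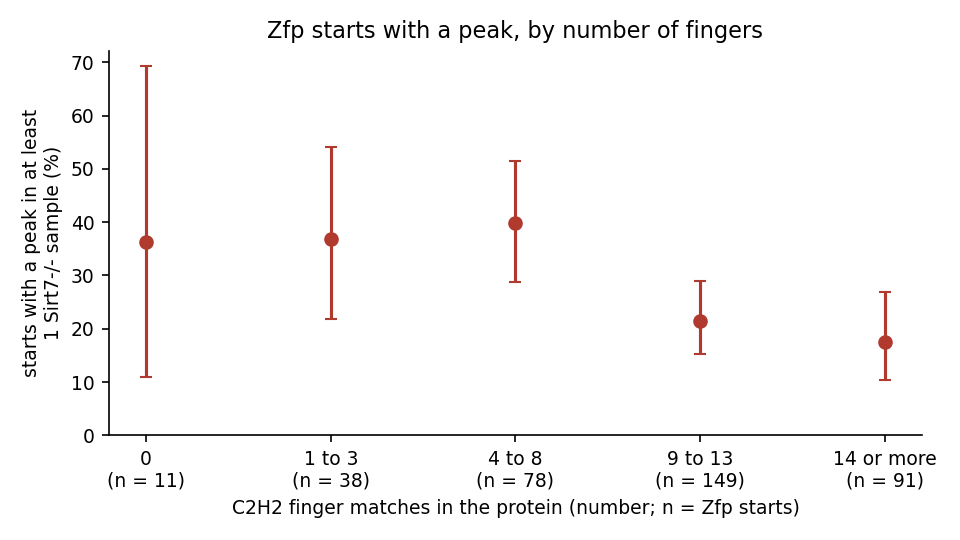
Percent of Zfp starts with a peak in at least 1 Sirt7-/- sample (y axis) by the number of C2H2 finger matches in the protein (x axis, with the number of starts per class). Points are shares and bars exact 95% confidence intervals, and the share is 39.7% at 4 to 8 matches and 17.6% at 14 or more.

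Peaks were called at a larger share of CpG-rich than of CpG-poor Zfp promoters, as over all starts. RefSeq promoter sequence was available for 325 of 388 Zfp genes. The promoter nearest to the gene start was used, and for 303 genes it lay within the window. For the rest, CpG class and peak call refer to different places. A promoter was called CpG-rich at an observed over expected ratio of at least 0.6 with at least 50% G and C. Of 152 CpG-rich Zfp promoters, 59 (38.8%, exact 95% confidence interval 31.0 to 47.0%) had a peak in at least 1 Sirt7-/- sample, against 35.9% of all CpG-rich starts. Of 173 CpG-poor ones, 20 (11.6%, 7.21 to 17.3%) did, against 6.46% of all CpG-poor starts. Of the 63 Zfp starts without a promoter sequence, 22 (34.9%, 23.3 to 48.0%) did, against 19.9% of all starts without one. In Sirt7-/- replicates 2, 3 and 4, 6.36%, 4.05% and 7.51% of CpG-poor Zfp starts had a peak, against 4.09%, 2.80% and 4.09% of all such starts. The CpG-poor Zfp promoters had a median ratio of 0.430, and all CpG-poor promoters one of 0.244, so the classes were not matched in CpG.

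The contrast between lone and clustered starts was also seen among CpG-rich promoters alone. Of 79 lone CpG-rich Zfp starts, 38 (48.1%, exact 95% confidence interval 36.7 to 59.6%) had a peak in at least 1 Sirt7-/- sample, and of 56 clustered ones, 14 (25.0%, 14.4 to 38.4%) did. The intervals overlapped. The median CpG ratio was 0.836 for the lone and 0.766 for the clustered starts, so these classes were not matched in CpG. Among CpG-poor promoters, 12 of 62 lone starts (19.4%) and 8 of 94 clustered starts (8.51%) had such a peak, with median ratios of 0.416 and 0.447. By recurrence, the median CpG ratio was 0.552 over the 246 of 287 uncalled Zfp starts that had a promoter sequence, 0.753 over 44 of the 55 called in 1 Sirt7-/- sample and 0.828 over 20 of the 24 called in 3. Of the 22 called in 2, only 15 had a sequence, and their median ratio was 0.810.

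In Sirt7-/- samples, peaks at Zfp starts had a median width a little below that of peaks at promoters in general. The median width in Sirt7-/- replicates 2, 3 and 4 was 479, 411 and 424 bp at Zfp starts and 491, 458 and 469 bp at all protein-coding starts. In WT replicates 2, 3 and 4 it was 345, 390 and 310.5 bp at Zfp starts, resting on 17, 1 and 4 peaks, and 376, 272 and 300 bp at all protein-coding starts. The Sirt7-/- medians averaged 438 ± 36.1 bp and the WT medians 348.5 ± 39.9 bp (SD, n = 3 each), a difference of 89.5 bp. Over all protein-coding starts the averages were 473 ± 16.8 bp and 316 ± 53.8 bp, a difference of 157 bp. Peaks were wider at starts called in more samples. At Zfp starts called in 1, 2 and 3 Sirt7-/- samples the median was 264, 439 and 583 bp, against 344, 438 and 591 bp at all starts. The peaks of Zfp starts called once were thus narrower than those of all starts called once.

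Peaks lay downstream of the Zfp start as a rule. The median midpoint was 295, 253 and 280.5 bp downstream in Sirt7-/- replicates 2, 3 and 4 and 273 bp in WT replicate 2, and 72.1 to 75.0% of peaks were centred downstream in these samples. Over all starts the median was 284 to 310.5 bp. Of 196 pairs of a Zfp start and a peak, the peak covered the start in 48 (24.5%), and no other protein-coding start was nearer to the midpoint in 166 (84.7%).

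Zfp starts with a close neighbour had a peak more often, as did all such starts. Another protein-coding start lay within 3000 bp of 46 Zfp starts (11.9%), and 23 of them (50%) had a peak in at least 1 Sirt7-/- sample, against 22.8% of the other 342. Over all starts the values were 38.7% and 17.1%. The Zfp starts with a neighbour also had a higher median CpG ratio, 0.780 against 0.588, and the part of CpG content was not tested. The 342 Zfp starts with no such neighbour remained above the all-start value of their kind, with 22.8% (exact 95% confidence interval 18.5 to 27.6%) against 17.1%.

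The gene start used here missed some promoters. Of 23 Zfp genes with another RefSeq promoter more than 6 kb from the start, 4 had a peak there. Zfp217, an oncogenic repressor, had a peak at an inner promoter in 3 Sirt7-/- and 1 WT samples and none at the gene start, and Zfp638 had a peak at an inner promoter in 3 Sirt7-/- and no WT samples. Zfp800 had such a peak in 1 Sirt7-/- sample. Zfp821, called at its start in 1 sample of each genotype, had peaks at inner promoters in 3 Sirt7-/- and 1 WT samples. With any RefSeq promoter counted, an alternative chosen after the values were seen, 26.8% of Zfp genes had a peak in at least 1 Sirt7-/- sample and 14 had 1 in all 3 Sirt7-/- and no WT samples. The mean Sirt7-/- share relative to all starts was then 1.22, against 1.21 with the gene start alone. The WT mean, which rested on few calls, was 1.02, against 0.829.

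The partners of KRAB proteins were called in part. Of 15 genes for KRAB cofactors and heterochromatin partners, 9 (60%) had a peak in at least 1 Sirt7-/- sample, against 20.3% of all starts, and 4 in at least 1 WT sample, against 5.42%. Cbx3, which encodes the heterochromatin protein HP1γ, and Morc3, an ATPase of heterochromatin, had a peak in all 3 Sirt7-/- samples and in WT replicate 2. Hdac2, a histone deacetylase, had a peak in all 3 Sirt7-/- samples and in WT replicates 2 and 3. Trim28 and Setdb1, the central corepressor and its methyltransferase, had no peak in any sample, nor had Hdac1, Cbx1, Dnmt1 and Uhrf1.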

How the data were processed

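ChIP-seq with an antibody against H3K36ac was done by the authors on 3 WT and 3 Sirt7-/- samples. Trimming used Trim Galore 0.6.6. Alignment to mm10 used Bowtie2 2.4.4.1, and SAMtools 1.19.2 removed alignments with a mapping quality below 30. MACS2 2.2.5 was run in broad mode (cutoff 0.1) on every sample with the matching input as control. Replicates were not pooled and no spike-in factor was applied. For each peak, the deposited lists hold a position, a score, a fold over input (a ratio) and -log10 p and q. Fold and -log10 q served to describe, rank or filter peaks within a list, and the deposited score was not used. Because read numbers after filtering are unknown, intervals cover counting error only. They treat starts as separate, though some share peaks or clusters, so a value outside an interval is no test result.

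Gene starts came from RefSeq (GRCm38.p6, the assembly of mm10). Strand came from its promoter table for 16457 genes and from GENCODE vM39, by symbol and chromosome, for 3803, and 405 genes without a strand were left out. The peak had to overlap the window. Proteins were translated from GENCODE vM39 canonical transcripts, in place of the RefSeq proteins set out in the design, and the patterns were C-x(2,4)-C-x(12)-H-x(3,5)-H for a finger and a KRAB A-box motif within the first 200 residues. Members and lists were chosen with earlier results of these data known, so no test was made over them. The genes named were those with peaks in 5 or 6 samples, those with peaks in all 3 Sirt7-/- and no WT samples, those with peaks in WT alone, 16 of known roles, the 3 widest in Sirt7-/- and up to 3 called members of each of the 5 largest clusters. The other genes named were chosen after their values were seen. The shares, their ratios to all starts, the count of starts called in Sirt7-/- alone, the width and the cluster difference were recomputed, where applicable, with a stricter q, a minimum width, equal numbers of peaks, a narrower window, peak midpoints, no neighbouring start, either gene end and each replicate left out. Wider clusters applied to the cluster difference, and a replicate block to the genotype difference and the count. Named genes had the first 5 settings and the KRAB difference a wider pattern, while CpG, finger and neighbouring-start shares were not recomputed. The functions were tested on simulated data. Tables were handled with pandas 2.3.3 and NumPy 2.4.6 under Python 3.11.15, tests and intervals came from SciPy 1.17.1, and plots from matplotlib 3.10.9.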

Additional observations from a re-analysis of the deposited data

How the results depend on the processing

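Of 95 recomputed summary values, 66 stayed within a limit set around the original. The limit was the exact 95% confidence interval for the shares in at least 1 sample, a fixed factor for the count of starts, and the SD between samples for the rest. Some of the 66 could not change, such as the replicate block values and the Zfp shares with either gene end, as every Zfp start had a known strand. With -log10 q of at least 2, the share of Zfp starts with a peak in at least 1 Sirt7-/- sample was 18.3% and in at least 1 WT sample 2.58%, the difference in mean share 9.19 points and the clustered minus lone difference -10.3 points. With peaks at least 500 bp wide these were 12.4%, 1.55%, 6.01 and -8.70 points, the Zfp share relative to all starts was 1.12 in Sirt7-/- and 0.326 in WT, 6 starts had a peak in every Sirt7-/- and no WT sample, and the median width was 813.5 bp. With the 64 best peaks per sample both shares were 0.515%, the difference was 0 points, the Sirt7-/- relative share 0.801, the count of starts 0, the median width 394 bp and the clustered minus lone difference -0.184 points. Few Zfp starts had a peak in that setting, so its values could hardly differ between groups. A window of 1000 bp gave a relative share of 1.13 in Sirt7-/- and a clustered minus lone difference of -13.3 points. The WT relative share was 0.988 without starts that have a protein-coding neighbour and 1.02 with any RefSeq promoter, where the clustered minus lone difference was -16.7 points. Leaving out each replicate gave 19.8 to 23.2% of Zfp starts in Sirt7-/- samples, 1.03 to 5.41% in WT, and 12 to 21 starts with a peak in every Sirt7-/- sample and none in WT. By their rules, these shares could only stay or fall and the count only stay or rise. Deviations of samples with the same replicate number correlated at 0.0276, 0.0189 and 0.00776, and those with unlike numbers at -0.0269 to 0.0093. Values this small, from sparse calls, could not decide whether the numbers pair the samples. The replicate block gave 12.7 points and a count of 12, which equal the unblocked values by construction and are no check on them. No setting reversed the cluster or the genotype difference (the latter reached 0), while the relative shares crossed 1 as given above. Of 32 named genes, 31 had the same number of samples with a peak when the peak midpoint had to lie in the window. With a window of 1000 bp 24 did, with -log10 q of at least 2 17 did, and with peaks at least 500 bp wide 12 did. Under the 64 best peaks 5 did, and these had no peak to begin with, so they could not change. WT depth in peaks limits all WT values.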

Other observations

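Other zinc finger families had different shares of starts with a peak in at least 1 Sirt7-/- sample. Of 40 Zbtb genes, whose proteins join C2H2 fingers to a BTB domain, 22 (55.0%) had such a peak, against 20.3% of all starts. A peak in all 3 Sirt7-/- samples was found at 6 of them (Zbtb1, Zbtb2, Zbtb17, Zbtb21, Zbtb25 and Zbtb8os), against 5.39% of all starts. Zbtb1 and Zbtb25 start at chr12:76370051 and chr12:76370214 and had the same calls in all 6 samples. Their windows do not give 2 separate measurements. Zbtb8os is a neighbour of a Zbtb gene that matched by symbol and has no BTB domain. Of 16 Klf genes, which encode factors with 3 fingers that bind GC boxes, 10 had a peak, 6 of them (Klf3, Klf6, Klf7, Klf9, Klf10 and Klf13) in all 3 Sirt7-/- samples. Of 15 Zc3h genes, whose CCCH fingers bind RNA, 9 had a peak and 4 (Zc3h4, Zc3h6, Zc3h7b and Zc3h15) in all 3. By contrast 0 of 16 Zscan genes had a peak in any sample, which allows a share of up to 18.8%, and 2 of 11 Zkscan genes did in Sirt7-/- samples. The proteins of both families carry a SCAN domain, an adaptor for pairing with other proteins. In WT the counts were 7 Zbtb, 4 Klf, 3 Zc3h, 0 Zscan and 0 Zkscan genes, where 5.42% of all starts had a peak. Of the other lists, 3 of 9 Sp, 3 of 11 Zmy, 4 of 9 Zswim and 4 of 22 Zdhhc genes had a peak in at least 1 Sirt7-/- sample. The differences between families were not tested.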
